A study of Bos taurus with 30 samples.

Results

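Transient 4-cell sites were stretches of the bovine genome that were called as open chromatin in 4-cell embryos and not in the 2-cell, 8-cell or morula embryos around them. For each stage, the ATAC-seq peaks of the 3 control replicates were merged wherever they shared at least 1 bp, and a merged stretch was kept as a region of that stage if peaks of at least 2 replicates lay in it. Of 15117 regions of the 4-cell stage, 1466 overlapped no region of 2-cell embryos, 8-cell embryos or morulae. The sites were thus selected on the presence and absence of peaks in the 12 lists of these 4 control groups, and only the other 18 libraries played no part in the choice. The remaining 13651, called other 4-cell regions here, comprised 12271 that were also open at the 8-cell and morula stages, 533 open at the 8-cell stage but not in morulae, 809 open in morulae but not at the 8-cell stage, and 38 shared with the 2-cell stage alone. By the rule, each of these was open at a further stage and the transient sites at none. The choice thus leans comparisons of the sets, also in the 18 libraries, towards lower shares of transient sites.

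ATAC-seq uses a transposase that inserts sequencing adapters into DNA that is not covered by nucleosomes or other proteins, so that active promoters, enhancers and other regulatory elements appear as peaks of cut sites. The early cattle embryo relies on RNA and protein stored by the oocyte, and most of its own transcription begins around the 8-cell stage, when the chromatin landscape is also reorganised. A site that is open just before this embryonic genome activation (EGA) and closed at the 8-cell stage can therefore be followed in embryos in which RNA polymerase II is blocked with α-amanitin, which reach 8 cells without activating their genome.

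The libraries came from pools of at least 500 cells, with 3 replicates per group. In vitro produced embryos were collected at the 2-cell stage (30 to 32 h after insemination), the 4-cell stage (2 days), the 8-cell stage (3 days) and the morula stage (5 days), all fertilized with semen of a Holstein bull. At the 2-, 4- and 8-cell stages, transcription blocked embryos (TBE) cultured with 50 µg/ml α-amanitin from the first day accompanied the untreated controls. The other untreated groups were germinal vesicle-stage (GV) oocytes taken before maturation, inner cell masses (ICM) freed from blastocysts by immunosurgery, and embryonic stem cells (ESC) from ICM-derived lines grown on mouse feeder cells, which were removed before lysis. Each library averages over a pool, so that a site open in fewer embryos and a site less open in all of them cannot be told apart.

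The peak lists differed greatly in length, and the part of list length in the shares was not tested apart from the alternatives with lists of equal length. The 4-cell controls held 42012, 22983 and 14355 peaks in replicates 1 to 3, against 125253 to 156569 in the 8-cell controls and 142231 to 207459 in morulae. The 8-cell TBE lists held 90890, 247513 and 50090 peaks, and those of 4-cell TBE 32260, 4166 and 3094. Replicate 2 of 8-cell TBE stood apart, since its peaks covered 194 Mb at a median fold enrichment of 2.49, against 62.4 and 24.5 Mb at 3.37 and 3.79 in the other replicates. GV lists were even (40132 to 44678 peaks), ICM lists held 84773 to 116791 peaks, ESC lists 39333 to 142643, 2-cell control lists 1002 to 6440 and 2-cell TBE lists 925 to 11083. Each share of transient sites is therefore given beside the share of other 4-cell regions in the same library.

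Many transient sites were found again in 8-cell embryos that could not transcribe, a majority of them in 2 of 3 libraries. A peak of 8-cell TBE lay in 978 sites (66.7%) in replicate 1, in 1319 (90.0%) in replicate 2 and in 610 (41.6%) in replicate 3, with exact (Clopper-Pearson) 95% intervals of 64.2 to 69.1%, 88.3 to 91.5% and 39.1 to 44.2% that cover counting error over sites only. The mean over the 3 libraries was 66.1% ± 24.2 (SD), and 54.2% ± 17.8 (SD) over the other libraries when replicate 2 was left out. Across all 15117 regions of the 4-cell stage the same libraries held 92.9, 97.8 and 81.9%. Other 4-cell regions were held at 95.7, 98.7 and 86.2%, above the transient sites in each of the 3 libraries. When a peak of any single replicate was enough to make a region, the mean over the 3 libraries was 29.5% of 18732 sites, among 58432 4-cell regions. The mean within-library difference to other 4-cell regions was then −41.9 points, against −27.4 points by the main rule. The choice of the sites leans towards both differences.

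The untreated 8-cell libraries held 188, 102 and 96 of the 1466 sites, which is 12.8, 6.96 and 6.55%, against 85.4, 81.3 and 83.2% of all 4-cell regions. These low values follow from the choice of the sites and are not a result, because regions with an 8-cell region in them were removed. Since 8-cell peaks that do not touch each other form no region, 7 sites kept peaks of 2 8-cell controls. The same holds for the 2-cell controls (1.23, 1.84 and 6.00%, against 4.14, 5.19 and 19.2% of all 4-cell regions) and for morulae (2.25, 21.4 and 3.41%, against 82.1, 89.3 and 85.2%). Of all 4-cell regions, 4.29% overlapped a 2-cell region, 84.7% an 8-cell region and 86.5% a morula region, and by the rule no transient site did. Among morulae, replicate 2, the longest of these lists, held most of the residual peaks.

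**Figure D1:**
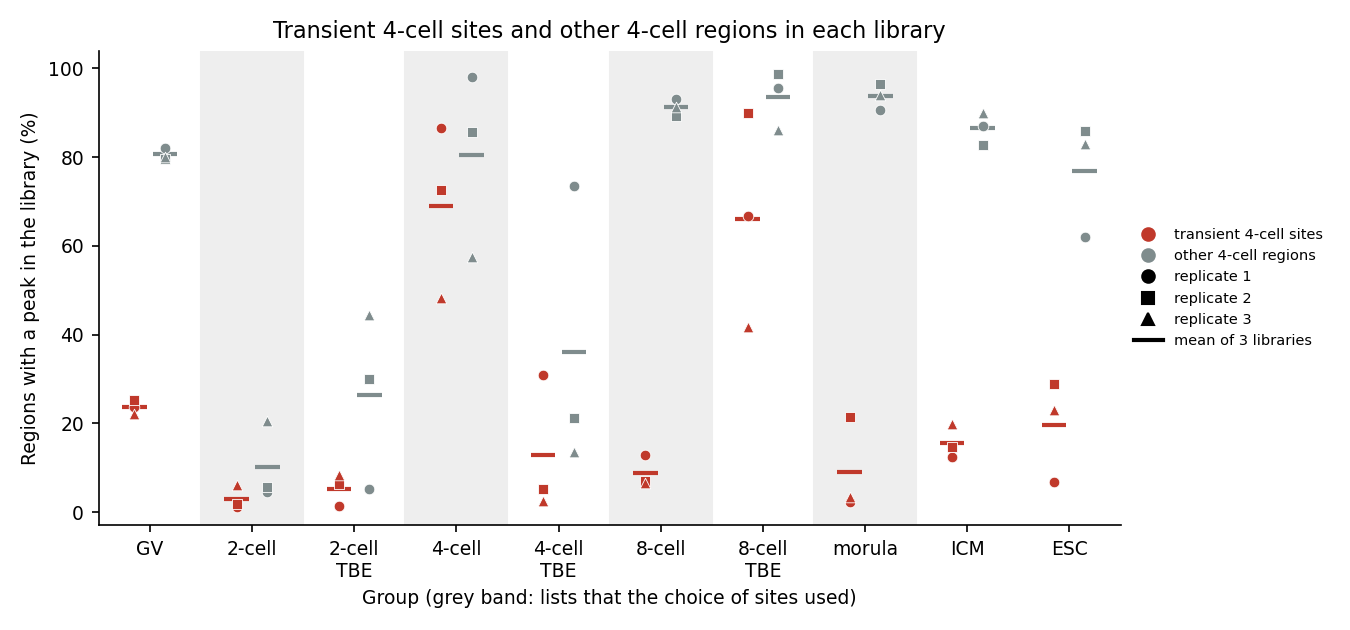
Share of 1466 transient 4-cell sites (red) and of 13651 other 4-cell regions (grey) that hold a peak, in percent, in each of 30 libraries by group; symbols are replicates, short lines are means of 3 libraries, and grey bands mark the groups whose lists chose the sites. Outside the bands, the transient sites lie below the other regions in all 18 libraries, and their highest shares are those of 8-cell TBE, at 41.6 to 90.0%. The choice of the sites leans towards their lower position.

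By the stricter count of regions, 1029 transient sites (70.2%, exact 95% interval 67.8 to 72.5%) overlapped an 8-cell TBE region, made from peaks of at least 2 of its replicates, against 93.9% of all 4-cell regions and 96.4% of the other ones. All 3 TBE libraries held 544 of the sites (37.1%, against 80.3% of all 4-cell regions), exactly 2 held 467, a single library held 341, and none held 114. At least 1 library thus held 92.2% of the sites, against 98.6% of all 4-cell regions. Replicate 2 held 1319 of the 1352 sites with a peak in any TBE library.

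To compare treated with untreated 8-cell embryos on sites that the untreated library did not choose, each control library was held out in turn, and the sites were drawn again without it. The held-out controls then held 22.6% of 1656 sites (replicate 1), 13.8% of 1585 (replicate 2) and 14.3% of 1613 (replicate 3), a mean of 16.9% ± 4.92 (SD, n = 3). The TBE libraries held 68.7, 90.5 and 43.6% of the same sites, each value being the mean over the 3 sets of sites. The mean of these libraries was 67.6% ± 23.5 (SD, n = 3). The lowest TBE value lay above the highest control value, and the difference was 50.7 percentage points (exact two-sided permutation test, p = 0.1, the smallest p that 3 against 3 libraries allow). The controls that chose the sites belong to the same group as the control held out, which leans this comparison towards a low control value.

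A choice that used no 8-cell list gave a similar difference. The 1921 regions of the 4-cell stage that overlapped no 2-cell and no morula region were held at 30.4, 21.9 and 22.3% by the 8-cell controls and at 71.9, 91.5 and 48.0% by 8-cell TBE. The groups again did not overlap, and the difference was 45.6 percentage points (exact permutation test, p = 0.1). This choice still removed regions open in untreated morulae. Of the 4-cell regions open at the 8-cell stage, 12271 were also open in morulae and 533 were not. It therefore leans towards a low control value as well. With the 6 lists of the 8-cell stage cut to the 50090 peaks of lowest p-value each, the held-out difference was 46.4 points, from 48.0% in TBE and 1.56% in controls. Here the sites were still chosen with the full lists, and the list of TBE replicate 3 kept all its peaks. The choice therefore leans towards the low control value here too. Without TBE replicate 2, the longest list, the held-out difference was 39.2 points.

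At the 4-cell stage, the shares of transient sites with a peak overlapped between TBE and controls. Here each 4-cell control was held out, and the sites were drawn from peaks shared by the other pair of controls. The held-out controls held 34.9% of 304 sites, 20.4% of 504 and 12.3% of 867 (mean 22.5% ± 11.4, SD, n = 3), and the 4-cell TBE libraries held 35.5, 8.17 and 3.35% (mean 15.7% ± 17.4, SD, n = 3). The difference was −6.87 points (exact permutation test, p = 0.6). The difference was 1.16 points, with 4.95% in TBE and 3.79% in controls, when the 3094 peaks of lowest p-value of each 4-cell list were scored. It was −0.71 without control replicate 1, −0.70 without TBE replicate 3, −3.11 without TBE replicate 2, −12.0 without control replicate 3 and −16.8 without TBE replicate 1, so single libraries set its size. The order of the libraries followed the length of their lists in both groups.

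The TBE minus control difference was 57.6 points larger at the 8-cell than at the 4-cell stage (exact permutation test within stages, 400 arrangements, p = 0.035, smallest possible 0.005). This p rose above 0.05 when certain single libraries were left out: it was 0.06 without replicate 1 of either control group and 0.07 without 8-cell control replicate 2 or 3 or 4-cell TBE replicate 2 or 3, while the difference stayed between 46.1 and 69.6 points. It was 0.08, with a difference of 45.2 points, when lists of equal length were scored within each stage, and 0.0625, with a difference of 57.2 points, with the replicate number as a block. The sites were required to be open in 4-cell controls and closed in 8-cell controls, so the choice itself leans in the direction of this difference at both stages. The permutation test makes no allowance for this, so its p-value does not separate the treatment from the choice.

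**Figure D2:**
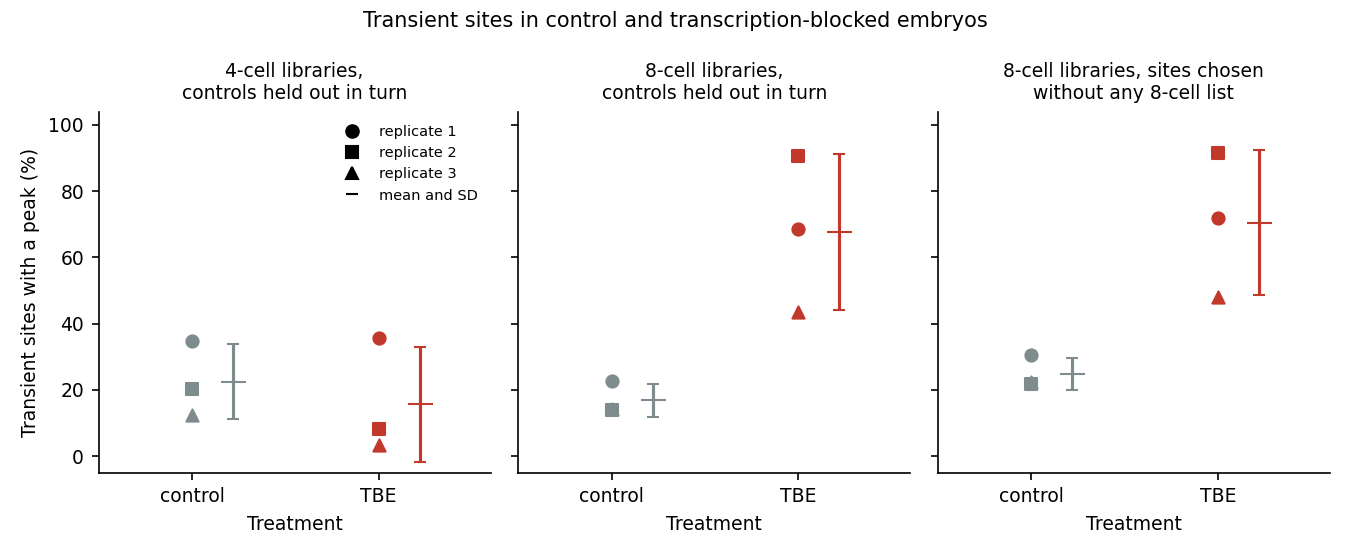
Share of transient sites with a peak, in percent, in control (grey) and TBE (red) libraries; symbols are the 3 replicates, and bars are the mean and SD. The groups overlap at the 4-cell stage (12.3 to 34.9% against 3.35 to 35.5%), and they are apart at the 8-cell stage, both with controls held out (13.8 to 22.6% against 43.6 to 90.5%) and with no 8-cell list used (21.9 to 30.4% against 48.0 to 91.5%).

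The same exercise measured how well the transient sites were found again within their own stage. A held-out 4-cell control held 34.9, 20.4 and 12.3% of the transient sites drawn from the other replicates, but 95.3, 74.1 and 49.1% of the other 4-cell regions drawn the same way. The other regions were by the rule open at a further stage, so the choice leans towards this contrast. The 8-cell TBE libraries held more of those same transient sites than the held-out 4-cell control did in every case: 67.1, 86.8 and 48.7% of the 304 sites, 67.1, 89.7 and 41.3% of the 504 sites, and 71.2, 92.5 and 45.0% of the 867 sites. Of all 15117 regions of the 4-cell stage, drawn with all 3 controls, replicates 1 to 3 of 8-cell TBE held 92.9, 97.8 and 81.9%. Every 8-cell TBE list (50090 to 247513 peaks) was also longer than every 4-cell control list (14355 to 42012). The part of list length in these shares was not tested.

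In the GV oocyte, before fertilization, the transient sites were mostly not called. GV libraries held 347, 369 and 323 of them, which is 23.7, 25.2 and 22.0%, against 76.5, 74.4 and 74.4% of all 4-cell regions and 82.1, 79.7 and 80.0% of the other ones. The within-library difference was −57.0 points ± 2.16 (SD, n = 3) and was negative in 3 of 3 libraries (exact sign-flip permutation test, p = 0.25, the smallest possible). The other regions were by the rule open at a further stage, so the choice leans towards this difference, and the test makes no allowance for it. A GV region overlapped 328 transient sites (22.4%, exact 95% interval 20.3 to 24.6%), against 76% of all 4-cell regions, 85.7% of those kept open to the morula and 43.3% of those open again in morulae only. This share was 42.0% with equal numbers of top peaks in each list, 36.8% where peaks needed a −log10 q of 3 or more, and 14.3% where a single replicate could make a region. No GV library held 905 of the sites, a single one held 240, exactly 2 held 164 and all 3 held 157 (10.7%, against 65.5% of all 4-cell regions). At least 1 GV library thus held 561 (38.3%, against 83.8% of all 4-cell regions).

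Sites shared with the oocyte were also held more often by 8-cell TBE. Among the 328 sites with a GV region, TBE replicates 1 to 3 held 86.6, 96.0 and 57.0%, and among the 1138 without one they held 61.0, 88.2 and 37.2%. The difference was 17.8 points ± 9.08 (SD, n = 3) and was positive in 3 of 3 libraries (exact sign-flip permutation test, p = 0.25, the smallest possible). Other 4-cell regions showed a difference of 14.0 points ± 10.2 (SD, n = 3) in the same direction, and the size of these differences was not tested against each other. The sites without a GV region still had TBE peaks more often than the held-out 8-cell controls held transient sites (37.2 to 88.2% against 13.8 to 22.6%), values from differently chosen sets that were not tested against each other.

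The TBE groups of earlier stages held fewer of the sites. Peaks of 4-cell TBE lay in 453 (30.9%), 76 (5.18%) and 36 (2.46%) of them, against 69.3, 19.6 and 12.4% of all 4-cell regions, and 73 sites (4.98%) overlapped a 4-cell TBE region, against 23.2% of all. Of those 73, 63 (86.3%) also overlapped an 8-cell TBE region, against 98.9% of all 4-cell regions with a 4-cell TBE region. Peaks of 2-cell TBE lay in 19, 93 and 121 sites (1.30, 6.34 and 8.25%), against 4.72, 27.7 and 40.9% of all 4-cell regions, and 20 sites (1.36%) overlapped a 2-cell TBE region, against 19.5% of all. At least 1 library of 4-cell TBE held 486 sites (33.2%, against 71.4% of all 4-cell regions) and all 3 held 5 (0.341%, against 6.44%). At least 1 library of 2-cell TBE held 210 sites (14.3%, against 50.2% of all) and all 3 held 2 (0.136%, against 3.08%). Both groups held a smaller share of the transient sites than of all 4-cell regions in each of their libraries.

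Later pluripotent cells held few transient sites. ICM libraries held 183, 215 and 291 (12.5, 14.7 and 19.8%), against 79.8, 76.2 and 83.1% of all 4-cell regions. ESC libraries held 99, 424 and 338 (6.75, 28.9 and 23.1%), against 56.7, 80.3 and 77.1%, and replicate 1, the shortest ESC list, was the lowest. An ICM region overlapped 194 sites (13.2%, against 81.1% of all), an ESC region 273 (18.6%, against 75.6% of all), and both overlapped 78 (5.32%, against 71.2% of all). At least 1 ICM library held 448 sites (30.6%, against 87.5% of all 4-cell regions) and all 3 held 57 (3.89%, against 70.9%). At least 1 ESC library held 513 sites (35.0%, against 83.2% of all) and all 3 held 87 (5.93%, against 55.8%). The within-library difference to other 4-cell regions was −70.9 points ± 3.32 (SD, n = 3) in ICM and −57.4 ± 2.31 (SD, n = 3) in ESC, negative in each library (exact sign-flip permutation test, p = 0.25 for each, the smallest possible). As in GV, the choice of the sites leans towards these differences.

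To set groups with lists of unequal length beside each other, the share of transient sites was divided by the share of other 4-cell regions in each library, and the log2 of this ratio was compared. List length was not removed by this. Within 8-cell TBE, 4-cell TBE, ICM and ESC the ratio rose with list length, but not within GV. In 8-cell TBE it went from −1.05 at 50090 peaks to −0.13 at 247513. Its mean was −0.57 ± 0.46 in 8-cell TBE, −1.77 ± 0.10 in GV, −1.91 ± 0.61 in 4-cell TBE, −2.21 ± 0.87 in ESC and −2.49 ± 0.31 in ICM (SD, n = 3 each). All 3 libraries of 8-cell TBE (−1.05 to −0.13) lay above all libraries of GV (−1.86 to −1.66), 4-cell TBE (−2.45 to −1.25), ICM (−2.80 to −2.18) and ESC (−3.20 to −1.57). Each of these 4 pairs gave p = 0.1 in an exact permutation test, the smallest possible, and 0.12 after Benjamini-Hochberg adjustment over 6 pairs. GV lay above ICM without overlap (difference 0.72, exact permutation test, p = 0.1), while GV and ESC overlapped (difference 0.43, exact permutation test, p = 0.8). On the scale of percentage points the order of 8-cell and 4-cell TBE turned round (−4.26 points, exact permutation test, p = 0.9), since 4-cell TBE replicates 2 and 3 held few regions of either kind.

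Taking the GV oocyte, 8-cell TBE and the pluripotent cells (ICM or ESC) as 3 questions, the largest class was that of 580 sites (39.6%) with an 8-cell TBE region and none of the others. Of all 4-cell regions, 7.52% were in this class, and of the other 4-cell regions 4.08%. Next came 321 sites (21.9%, against 3.00% of all) with no region in any of these groups. A further 163 (11.1%, against 11.8% of all) had an 8-cell TBE and a pluripotent region, and 148 (10.1%, against 3.57%) an 8-cell TBE and a GV region. All 3 kinds were found at 138 sites (9.41%), against 71.0% of all 4-cell regions, the commonest class there. Without an 8-cell TBE region, 74 (5.05%, against 1.73% of all) had a pluripotent region only, 28 (1.91%, against 0.37%) a GV region only and 14 (0.95%, against 1.01%) both. At the level of single libraries, 227 sites (15.5%) had peaks of 8-cell TBE and of no library outside the 4-cell controls otherwise, and 54 (3.68%) had no peak in any library outside the 4-cell controls. By the rule, no other 4-cell region could be in these last 2 sets.

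How strictly the sites were absent from the stages around them also varied. No peak of any of the 9 control libraries of 2-cell, 8-cell and morula embryos lay in 778 of them (53.1%), and 1, 2 or 3 such libraries held 482, 185 and 21. Replicates 1 to 3 of 8-cell TBE held 58.5, 85.2 and 34.7% of the 778, and 72.4, 93.6 and 45.6% of the 482. Of all 4-cell regions they held 92.9, 97.8 and 81.9%. A GV region overlapped 16.3% of the 778 and 25.9% of the 482, against 76% of all 4-cell regions. Just inside the rule lay 372 sites with a peak in a single 8-cell control, at a median 4-cell fold enrichment of 3.78 and a median width of 574.5 bp. Just outside it lay 229 regions with peaks of exactly 2 8-cell controls and no 2-cell or morula region, at 3.84 and 633 bp, of which 43.7% overlapped a GV region and 91.3% an 8-cell TBE region.

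Within the 4-cell stage, the transient sites were weaker and less reproducible than the other regions. Peaks of replicates 1 and 2 made up 760 of them, replicates 1 and 3 made up 401, and replicates 2 and 3 made up 198. All 3 replicates held only 107 (7.30%), against 5624 of the other regions (41.2%). Of all 4-cell regions, 11.6% of those from replicates 1 and 2, 17.1% from replicates 1 and 3, 42.1% from replicates 2 and 3 and 1.87% of those from all 3 were transient. The median fold enrichment of transient sites over the local background, averaged over the 4-cell controls with a peak, was 3.75 (quartiles 3.46 and 4.12), against 4.41 (3.90 and 5.05) in other regions. By replicate it was 3.66, 3.73 and 3.71, against 4.80, 4.12 and 4.11 in other regions. The median width was 513 bp, against 687 bp. These are properties of the lists that chose the sites and are given as a description.

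The 107 sites held by all 3 4-cell controls were held most often by 8-cell TBE, at 86.9, 95.3 and 64.5%, and 41.1% of them overlapped a GV region. The other patterns ranged from 56.1 to 68.9% in TBE replicate 1, from 82.3 to 92.1% in replicate 2 and from 35.2 to 42.2% in replicate 3. The sites held by 4-cell replicates 2 and 3 overlapped GV regions least often, at 11.6%. Among regions held by all 3 4-cell controls, the transient ones were held by 8-cell TBE less often than the others in 3 of 3 libraries, with a difference of −15.5 points ± 13.3 (SD, n = 3, exact sign-flip permutation test, p = 0.25, the smallest possible). The choice of the sites leans towards this difference too.

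**Figure D3:**
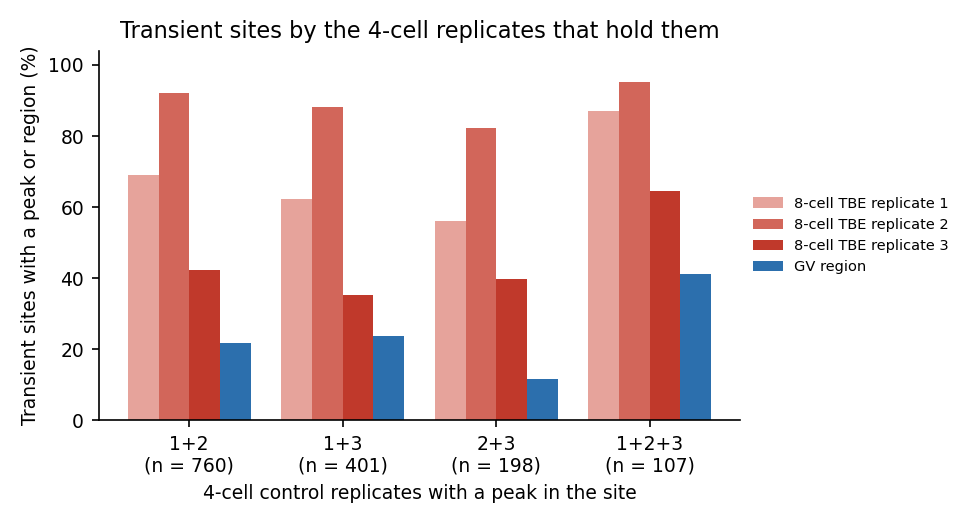
Share of transient sites, in percent, with a peak in each 8-cell TBE replicate (red shades) or with a GV region (blue), by which 4-cell control replicates held the site, with the number of sites under each pattern. The 107 sites of all 3 replicates stand highest in all 4 measures, from 41.1% (GV) to 95.3% (TBE replicate 2).

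Weak 4-cell signal moved with absence from the other groups. When all 4-cell regions were cut into 5 classes of equal size by their 4-cell fold enrichment, transient sites made up 23.4% of the lowest class (707 sites), then 13.1% (395), 6.52% (197), 3.57% (108) and 1.95% of the highest (59). In TBE replicate 3, the share of transient sites with a peak was 33.9% in the lowest and 49.2% in the highest class, against 71.0 and 94.7% of other regions. In replicate 1 it was 61.7 and 74.6%, against 90.5 and 98.9%. A GV region overlapped 19.9% of transient sites in the lowest and 47.5% in the highest class, against 63.9 and 94.7% of other regions. The transient sites lay below the other regions in all 5 classes, in each TBE library and in GV, a direction that the choice of the sites also leans towards. With other regions weighted to the same mix of enrichment and width, the within-library difference in 8-cell TBE was −20.5 points ± 12.4 (SD, n = 3), and the GV differences were −40.0, −35.6 and −39.2 points.

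**Figure D4:**
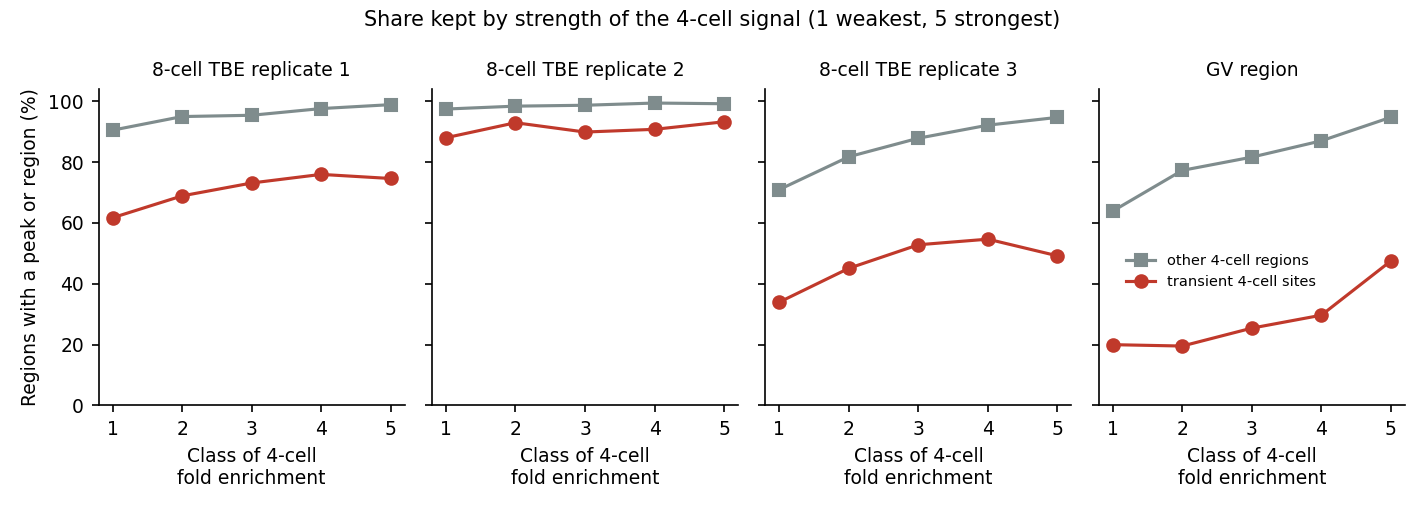
Share of transient sites (red) and of other 4-cell regions (grey), in percent, with a peak in each 8-cell TBE replicate or with a GV region, over 5 equal classes of the mean 4-cell fold enrichment (1 weakest, 5 strongest). The red line lies below the grey one throughout, and the gap is narrowest in TBE replicate 2, at 88.0 to 93.2% against 97.4 to 99.4%.

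The transient sites were scattered over the genome. Their gaps to 8-cell and morula regions follow from the choice of the sites and are given as a description. The median gap to the nearest 8-cell region was 6954.5 bp (quartiles 2734 and 16059.5), for the 1408 sites with such a region on the same chromosome or scaffold, and 109 lay within 1000 bp. It was 7089 bp for the 4-cell regions that were open in morulae but not at the 8-cell stage. The median gap to the nearest morula region was 5457.5 bp. Windows of 1 Mb with at least 1 site numbered 1058, of which 751 held a single site, 241 held 2 and 66 held 3 or more. The densest window, chr24:59000001-60000000, held 8 transient sites among 18 regions of the 4-cell stage, followed by chr13:81000001-82000000, with 6 among 15.

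By chromosome, the sites were spread unevenly relative to other 4-cell regions. The share of transient sites was below that of other regions on chromosomes 18, 19 and 25 together (79 sites, 5.39% against 11.6%) and on the X chromosome (19 sites, 1.30% against 2.18%). It was above on chromosomes 24 and 27 together (103 sites, 7.03% against 3.82%) and on unplaced scaffolds (101 sites, 6.89% against 3.11%). Of the sites on unplaced scaffolds, 51.5% overlapped a GV region, as did 50% of the 42 sites on chromosome 13, against 22.4% of all transient sites. Of all 4-cell regions in the genome, 76% did. The GV share of the other 4-cell regions on these scaffolds and on chromosome 13 is not given here. The chromosomes and scaffolds named were picked after their values were seen, and the shares are a description with no test. Without X and the scaffolds, the within-library difference in 8-cell TBE was −27.4 points, as with them.

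**Figure D5:**
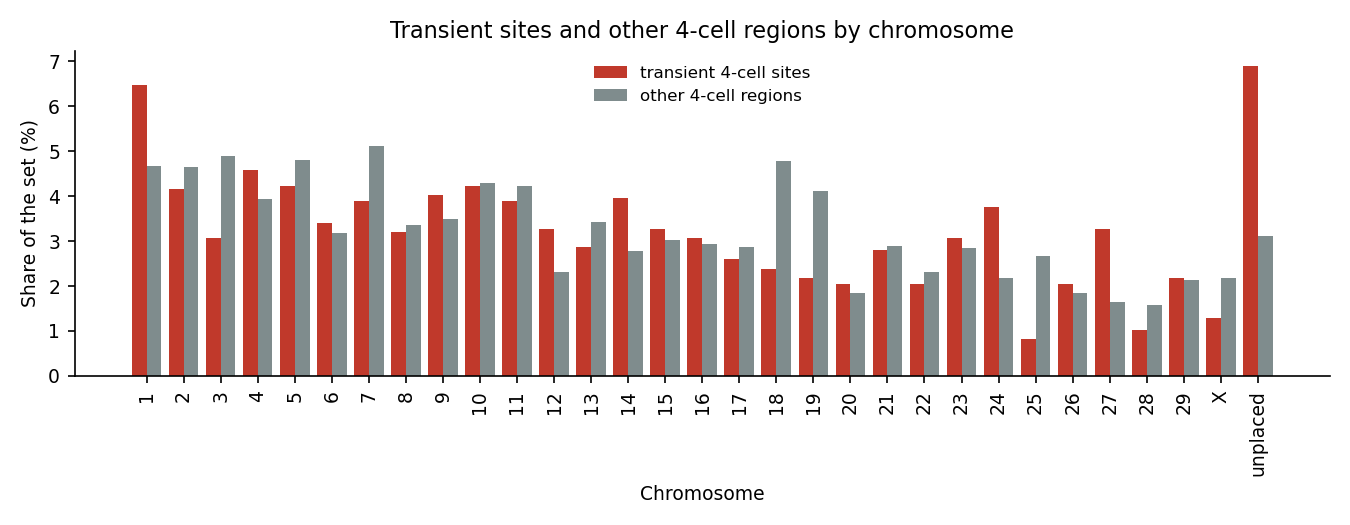
Share of the 1466 transient sites (red) and of the 13651 other 4-cell regions (grey) on each chromosome, in percent of each set, with unplaced scaffolds at the right. Transient sites are fewer on chromosomes 18, 19 and 25 and more frequent on 24, 27 and the unplaced scaffolds.

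A set of 20 sites had a peak in all 3 4-cell controls and all 3 8-cell TBE libraries and in no 2-cell, 8-cell or morula control library. Without the condition on 8-cell TBE the set numbered 39. The values below are the fold enrichment of the highest peak of a library in the site, in ARS-UCD1.2 coordinates, and values of different libraries are each relative to the background of their own library.

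The strongest of the 20 was chr16:28965924-28966182 (259 bp), at 6.16, 5.12 and 6.51 in the 4-cell controls and 6.52, 2.80 and 6.79 in 8-cell TBE. It was also open in the oocyte, at 4.87, 4.91 and 4.87 in the GV libraries, in 4-cell TBE replicate 1, at 6.98, and in ICM replicate 3, at 3.38. The nearest 8-cell region lay 592 bp away.

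The next site, chr10:99138355-99138652 (298 bp), had no peak in GV, ICM or ESC. Its enrichment was 5.49, 5.52 and 5.10 in the 4-cell controls and 4.05, 3.60 and 5.02 in 8-cell TBE, and 4-cell TBE replicate 1 held it at 4.52.

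The site chr11:91313409-91314259 (851 bp) was held by all 3 4-cell TBE libraries as well, at 3.28, 5.21 and 3.46. It stood at 3.52, 6.80 and 5.34 in the 4-cell controls and at 4.75, 3.27 and 7.15 in 8-cell TBE. GV replicates 2 and 3 held it at 4.29 and 3.30, and ICM replicate 2 at 2.97.

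The sites chr14:79419198-79419487 (290 bp) and chr4:84168130-84168456 (327 bp) were absent from GV and from 2- and 4-cell TBE and were found again in ESC replicates 2 and 3. The former had 5.65, 4.56 and 5.37 in the 4-cell controls and 6.84, 5.94 and 8.32 in 8-cell TBE. The latter had 4.40, 5.82 and 4.45 in the 4-cell controls and 4.78, 4.53 and 6.58 in 8-cell TBE. In both, TBE replicate 3 gave the highest value of the 6 libraries.

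Only 1 site with a peak in all 3 4-cell controls had no peak in any other library, chr9:14377591-14377921 (331 bp), at 3.62, 3.47 and 3.98. No site combined peaks in all 3 4-cell controls and all 3 GV libraries with absence from all 8-cell TBE libraries. The widest site, chr11:6754221-6756729 (2509 bp), had 3.22 and 3.28 in 4-cell replicates 1 and 2 and 3.67, 3.45 and 3.49 in 8-cell TBE. It also held a peak of 8-cell control replicate 2, at 3.30, and of GV replicate 2, at 3.85.

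The highest mean 4-cell enrichment, 8.28 ± 1.48 (SD, n = 3), was that of a 331 bp site on an unplaced scaffold, at 8.89, 9.36 and 6.60 in the 4-cell controls. Its 8-cell TBE values, 15.7, 10.5 and 11.9, lay above all 3 of these. It was also held by the GV libraries at 6.18, 6.19 and 5.34, by 2-cell TBE replicates 2 and 3 at 7.20 and 10.1, by 4-cell TBE replicates 1 and 2 at 8.50 and 5.92, by ICM replicate 1 at 4.61, and by 2-cell control replicate 3 and 8-cell control replicate 1, at 9.91 and 6.29, so that single libraries of the stages around the 4-cell stage did call it.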

How the data were processed

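Peaks were used as the authors deposited them, as a separate list for each library. Per the study's methods and the labels, reads were trimmed (Cutadapt 0.4.0), aligned to ARS-UCD1.2 with BWA 0.7.17 and stripped of PCR duplicates, mitochondrial reads and alignments of quality under 15. Broad peaks were called with MACS2 2.1.1 at q 0.05, with a shift of -100 and an extension of 200 bp. The deposited columns give a fold enrichment over the local background (a ratio), −log10 p and −log10 q values, and a score made from −log10 q, which was not used otherwise. Read depth per library is not in the peak lists, so list lengths are given in its place.

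Regions, sites and overlaps (1 bp) were computed in Python 3.11.15 with numpy 2.4.6 and pandas 2.3.3, and tested on simulated lists (200 trials, 0 mismatches). Libraries were compared by exact two-sided permutation tests. The p-values measure the spread between the 3 libraries of a group. These were pools from 3 collections for oocytes and embryos, and cultured lines for ESC. In the held-out tests each control value came from its own set of sites, so the control spread also includes that between sets. Regions named singly were the 5 strongest with peaks in all 3 4-cell controls, all 3 8-cell TBE and no 2-cell, 8-cell or morula control, up to 3 strongest found in the 4-cell controls only, up to 3 with GV and no TBE peaks, and the widest and the strongest. Members, lists and rules were chosen with earlier results of these data known. Sequence, motifs and gene annotation were not analysed here. Alternatives were: stricter peaks (−log10 q or fold enrichment of at least 3), autosomes, 50% overlap, other rules of presence and absence, equal list lengths, a replicate block and leaving out libraries.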

Additional observations from a re-analysis of the deposited data

Results flagged for a closer look

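The TBE minus control difference in the share of transient sites with a peak was 57.6 percentage points larger at the 8-cell than at the 4-cell stage (exact permutation test within stages, p = 0.035). It stands here because this test of the difference between 2 stages passed 0.05. The exact permutation p was 0.08 with lists of equal length, 0.0625 with the replicate block and 0.06 to 0.07 when any of 6 of the 12 libraries was left out, so the call rests on these choices. The sites were chosen as open in 4-cell controls and closed in 8-cell controls, and the list lengths of 4-cell TBE (32260, 4166 and 3094 peaks) and 8-cell TBE (90890, 247513 and 50090) moved with it. The part of either in the difference was not tested beyond the alternatives given with the processing. The permutation test makes no allowance for the choice of the sites, so its p-value does not separate the treatment from that choice.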

How the results depend on the processing

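The number of transient sites depended strongly on the rule. It was 155 with peaks of −log10 q of at least 3, 216 with regions from all 3 replicates, 778 with no peak in any single control library, 2208 where overlaps had to span 50% of a region, 3889 with equal numbers of top peaks (14355 in each list) and 18732 with regions from any replicate. Without each replicate in turn it ranged from 387 to 1190. The share overlapping a GV region was 36.8% (−log10 q of at least 3), 30.1% (all 3 replicates), 16.3% (no peak in any single library), 14.3% (any replicate) and 42.0% (equal top peaks), and 19.5 to 21.0% with a replicate left out. The mean share in 8-cell TBE fell to 29.5% with regions from any replicate. Under the other alternatives run it ranged from 45.1% (fold enrichment of at least 3) to 84.1% (regions from all 3 replicates). All of these lay within 1 SD of 66.1%, but this SD between 3 libraries was wide, at 24.2 points. With equal top peaks the 8-cell TBE libraries held 59.1, 55.8 and 52.9% of the transient sites and 79.0, 73.8 and 69.3% of the others. The 4-cell TBE minus control difference turned to 1.16 points (exact permutation test, p = 0.5) with equal top peaks and ranged from −16.8 to −0.70 with a library left out. GV minus ESC ranged from −0.064 (without ESC replicate 1) to 0.75 (without ESC replicate 2) when libraries were left out, and 8-cell minus 4-cell TBE to −4.26 in percentage points. The larger difference at the 8-cell stage lost its p with equal top peaks (45.2 points, exact permutation test, p = 0.08) and ranged from 46.1 to 69.6 points when libraries were left out. The cause was not tested.

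Control and TBE embryos of a collection were cultured together, but the labels do not tie replicate numbers to a collection, and same-numbered control and TBE libraries did not deviate together (correlations over sites of −0.02 to 0.04). With the replicate block, the difference was 50.9 points at the 8-cell stage (exact sign-flip permutation test, p = 0.25), −6.36 at the 4-cell stage (exact, p = 0.5) and 57.2 between stages (exact, p = 0.0625). Of 157 alternative values, 130 counted as unchanged, 16 without a test moved further, 8 lost the call and 3 changed sign. With a test, unchanged meant the same sign and the same side of 0.05. With no test, the number of sites had to stay within a fixed factor of the main number. The GV share had to stay inside its exact 95% interval, and the mean TBE share within 1 SD. For tests that cannot go below 0.1 or 0.25 no call could be kept or lost.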
